A study of Mus musculus with 3 samples.

Results

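Oxidative phosphorylation is the respiration of mitochondria. Complexes I, II, III and IV carry electrons from nutrients to oxygen, and all of them but complex II pump protons. Complex V, the ATP synthase, makes ATP from the return of those protons. Complexes I, III, IV and V are built from subunits of both the nuclear and the mitochondrial genome, complex II from nuclear genes alone. Several complex IV subunits exist as pairs of a widely expressed form and a form of heart and skeletal muscle or testis. Tubules of the mature kidney are among the tissues richest in mitochondria.

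The genes described here are those whose symbol in the annotation of the array starts with Nduf, Uqcr, Cox4 to Cox8 or Atp5, or is Sdha, Sdhb, Sdhc or Sdhd. The choice by symbol uses no value of the arrays, though it was made with earlier results of these data known. There were 85 such genes on 86 oligos. Of these, 84 had a value on all 3 arrays, out of 19635 features tested, which are 14746 genes with a symbol and 4889 oligos without a single symbol, each taken as a gene of its own and all meant by "all genes" below. Atp5l, a membrane subunit of the ATP synthase, had no value on any array. By complex, 39 genes belonged to complex I (31 subunits, 7 assembly factors and 1 pseudogene), 4 to complex II, 8 to complex III, 17 to complex IV and 16 to complex V (15 subunits and 1 pseudogene). Ndufa4 carries the name of complex I but is a subunit of complex IV, and was counted there. A search for 26 symbols of the subunits encoded by mitochondrial DNA matched 0 genes with a value, so those subunits were not analysed here.

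Each of the 3 arrays set RNA of kidney at 13.5 dpc (days post coitum) directly against RNA of metanephric mesenchyme, the tissue from which nephrons form, at 10.5 dpc. Tissues were microdissected from embryos of CD1 mice, an outbred stock, with males and females pooled, and RNA was amplified ahead of labelling. The measurement is the log2 ratio of the 2 RNAs that the authors deposited for each array. The sources used here do not say which RNA was the numerator. A gene is therefore given by the sign of its ratio, positive side or negative side, and neither sign is read as higher in kidney. The labels do not tell whether each array had tissue of its own, so a p-value reflects the scatter of these 3 hybridisations alone, and that scatter may be technical. In tissue RNA, fewer cells of a type and less RNA per cell cannot be told apart, and a ratio holds no level, so no 2 genes can be ranked by abundance.

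Most oxidative phosphorylation genes stood close to a ratio of 1, with a few genes far to either side, much as in the table as a whole. The mean log2 ratio over the arrays was smaller than 0.25 in size for 49 of 84 genes (58.3%), against 50% of all genes, and smaller than 0.5 for 66 (78.6%), against 77.6% of all genes. Means of 1 or more were found for Uqcrb, Ndufa4 and Cox6b1, and means of -1 or less for Ndufs4, Cox5a and Cox8a, 3 genes (3.57%) on each side, against 2.35% of all genes at 1 or more and 2.98% at -1 or less. The means of Ndufs4 and Cox8a rested on array 2, and without it they were -0.27 and -0.034. A positive mean was found for 57 genes (67.9%, against 50.3% of all genes and 49.6% of those with a symbol). Limma passed 0 of the 84 genes at a Benjamini-Hochberg adjusted p of 0.05, where it passed 1 gene of the whole table (0.00509%). At an unadjusted p under 0.05 the limma fit gave 8 genes on the positive side (9.52%, against 8.99% of all genes) and 5 on the negative side (5.95%, against 7.83% of all genes), shares near those of the whole table. Over the 14746 genes with a symbol alone the shares were 9.47% and 8.84%.

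The positive count changed with the array left out. Without array 3 the limma fit gave 21 genes on the positive side (25% of the 84, against 10.6% of all genes), and with arrays weighted by their agreement, which gave array 3 the lowest weight, 19 (22.6%, against 11.6%). Without array 1 it gave 4 (4.76%, against 4.35%) and without array 2 it gave 3 (3.57%, against 5.38%). On the negative side the count was 0 without array 1 (against 4.18% of all genes), 1 without array 2 (1.19%, against 5.12%) and 1 without array 3 (1.19%, against 9.23%). In each of these fits 0 of the 84 genes passed at an adjusted p of 0.05. Uqcrb, Ndufa4 and Cox6b1 were on the positive side at an unadjusted p under 0.05 in all of them.

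The arrays differed in how much of this they shared. Across the 84 genes Pearson's r was 0.58 between arrays 1 and 2, 0.56 between arrays 1 and 3 and 0.37 between arrays 2 and 3, and Spearman's rho was 0.69, 0.34 and 0.33. Without Ndufs4 and Cox8a, left out after their values on array 2 were seen, r was 0.74, 0.57 and 0.54. Spearman's rho without them was 0.675, 0.35 and 0.35, little changed. Over all 19635 genes r was 0.46, 0.17 and 0.16. These describe genes within the same 3 hybridisations, and genes are not independent replicates. The SD over the arrays had a median of 0.23 for the 84 genes and 0.32 for all genes. All 3 arrays were positive for 29 of the 84 genes (34.5%, against 21.5% of all genes) and all 3 were negative for 11 (13.1%, against 19.9%).

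**Figure D1:**
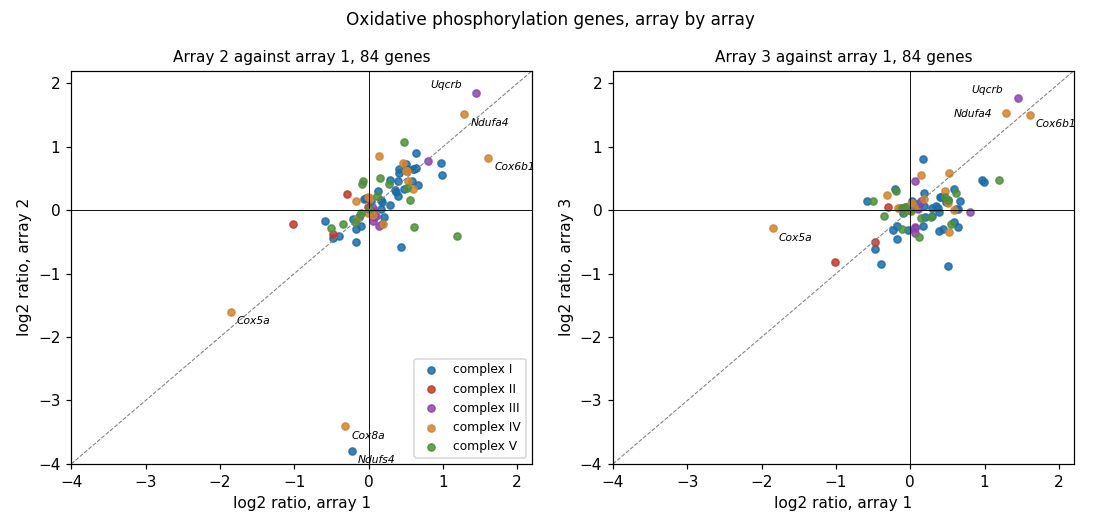
Deposited log2 ratio of each of the 84 oxidative phosphorylation genes on array 2 (left) and array 3 (right) against array 1, coloured by complex, with the dashed line at equal values. Most points lie near 0; Uqcrb and Ndufa4 lie above 1 on every array, while Ndufs4 and Cox8a lie below -3 on array 2 alone.

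The medians of the 5 complexes lay close together, except for complex II. The median of the genes' means was 0.11 for complex I, -0.22 for complex II, 0.013 for complex III, 0.11 for complex IV and 0.12 for complex V, beside 0.096 for all 84 genes and 0.0020 for all genes of the table. On arrays 1, 2 and 3 the medians were 0.29, 0.19 and 0.029 for complex I and -0.39, -0.082 and -0.25 for complex II. They were 0.086, -0.078 and 0.0020 for complex III, 0.14, 0.21 and 0.11 for complex IV, and 0.061, 0.093 and 0.014 for complex V. Complex II, with 4 genes, was the only complex whose median was below 0 on every array, and complex III had arrays on both sides. Without array 1 the complex V median was 0.024, and without array 2 it was 0.0049. With Ndufa4 counted in complex I the medians were 0.14 for complex I and 0.094 for complex IV.

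**Figure D2:**
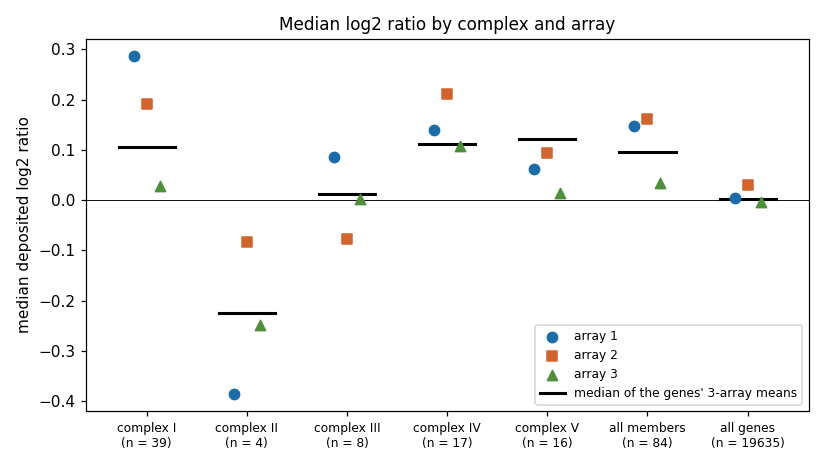
Median deposited log2 ratio of the genes of each complex on each array (symbols), with the median of the genes' means over the 3 arrays (bars), beside all 84 genes and all 19635 genes. Complex II, of 4 genes, lies below 0 on all 3 arrays, and array 3 gives the lowest median in complexes I, IV and V.

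Promoter sequence was looked at because nuclear genes of respiration are known to be bound by the transcription factors NRF1, GABP of the ETS family and YY1. RefSeq windows of 300 bases (build GRCm38.p6, from 250 bases before to 50 after the annotated start) were found for 68 of the 85 genes, 73 windows in all. The NRF1 motif searched was GCGCA and GCGC with 1 base of any kind between them, the ETS letters were CCGGAAG and the YY1 letters AAGATGGC, on both strands, and none of the 3 contains another. At least 1 match was present in 16 of the 73 windows for NRF1 (21.9%, against 4.6% of 32851 windows of all genes), in 17 for ETS (23.3%, against 8.86%) and in 11 for YY1 (15.1%, against 2.75%). The 32851 windows were not matched to the 73 in base composition or kind of gene, and the cause of the difference was not tested. Genes with a match lay on both sides of the ratio. Of 15 measured genes with an NRF1 match 9 had a positive and 6 a negative mean (median 0.0081), of 16 with an ETS match 9 were positive and 7 negative (median 0.0051), and of 11 with a YY1 match 7 were positive and 4 negative (median 0.061). For comparison, 57 of the 84 genes (67.9%, median 0.096) and 50.3% of all genes had a positive mean. A match is a description of the letters and not a binding site. The Nrf1 gene itself had -0.64, -0.42 and -0.55 on arrays 1, 2 and 3, a mean of -0.54 ± 0.11 (SD; limma adjusted p = 0.212).

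The windows below are shown in pairs, a gene of the positive side with one of the negative side that holds the same motif, followed by Ndufa4, which has the highest mean of the genes with a window. Capitals mark the motif matches, and each window reads 5′ to 3′ on the strand of its gene. Ndufb4 and Sdha each hold 3 NRF1 matches, Cox6b1 and Ndufaf1 each hold 1 ETS match, and Ndufa4 holds none of the 3 motifs. The window of Ndufb4 is chr16:37654319-37654618 on the minus strand, that of Sdha chr13:74350191-74350490 on the minus strand, that of Cox6b1 chr7:30626065-30626364 on the minus strand, that of Ndufaf1 chr2:119662785-119663084 on the minus strand and that of Ndufa4 chr6:11907401-11907700 on the minus strand.
Ndufb4: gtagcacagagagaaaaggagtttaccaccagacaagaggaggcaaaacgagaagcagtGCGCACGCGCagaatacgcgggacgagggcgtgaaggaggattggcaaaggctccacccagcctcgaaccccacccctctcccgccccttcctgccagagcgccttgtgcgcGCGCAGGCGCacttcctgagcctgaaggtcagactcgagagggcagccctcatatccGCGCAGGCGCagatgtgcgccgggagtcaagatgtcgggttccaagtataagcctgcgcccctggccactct
Sdha: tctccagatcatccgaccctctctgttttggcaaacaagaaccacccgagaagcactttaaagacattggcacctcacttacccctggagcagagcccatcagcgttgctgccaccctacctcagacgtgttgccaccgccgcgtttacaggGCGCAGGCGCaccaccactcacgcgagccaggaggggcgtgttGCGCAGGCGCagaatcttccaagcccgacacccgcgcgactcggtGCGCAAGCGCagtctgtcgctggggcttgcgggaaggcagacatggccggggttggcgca
Cox6b1: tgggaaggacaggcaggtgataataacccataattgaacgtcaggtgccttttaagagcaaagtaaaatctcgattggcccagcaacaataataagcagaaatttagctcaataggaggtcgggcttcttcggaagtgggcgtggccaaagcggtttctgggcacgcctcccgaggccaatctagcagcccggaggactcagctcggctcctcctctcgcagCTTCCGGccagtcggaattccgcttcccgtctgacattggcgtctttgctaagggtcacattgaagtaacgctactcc
Ndufaf1: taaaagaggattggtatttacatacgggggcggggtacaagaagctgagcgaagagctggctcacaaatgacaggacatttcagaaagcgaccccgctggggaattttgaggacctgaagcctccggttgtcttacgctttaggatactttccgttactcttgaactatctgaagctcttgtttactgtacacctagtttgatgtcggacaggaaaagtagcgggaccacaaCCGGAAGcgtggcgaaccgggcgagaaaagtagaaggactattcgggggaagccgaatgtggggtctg
Ndufa4: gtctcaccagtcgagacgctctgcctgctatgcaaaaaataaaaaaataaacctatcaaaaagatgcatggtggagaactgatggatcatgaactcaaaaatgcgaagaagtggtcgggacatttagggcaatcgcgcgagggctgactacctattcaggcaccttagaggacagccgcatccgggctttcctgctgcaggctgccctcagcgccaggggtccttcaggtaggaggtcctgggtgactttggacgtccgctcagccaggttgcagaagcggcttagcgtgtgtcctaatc
The mean log2 ratios of these 5 genes were 0.67 for Ndufb4, -0.68 for Sdha, 1.31 for Cox6b1, -0.51 for Ndufaf1 and 1.45 for Ndufa4.

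Complex I takes electrons from NADH. Its accessory subunits of the b series, which belong to the membrane arm, lay mostly on the positive side. Of 9 measured Ndufb genes 7 had a positive mean (77.8%, against 67.9% of the 84 genes and 50.3% of all genes). Of the 9, 5 were positive on all 3 arrays (55.6%, against 34.5% and 21.5%) and 0 were negative on all 3. The median was 0.23. Ndufb3 had log2 ratios of 0.97, 0.75 and 0.48 on arrays 1, 2 and 3, with a mean of 0.73 ± 0.25 (SD, as for the means below; limma adjusted p = 0.178). Ndufb4 had 0.99, 0.56 and 0.45, with a mean of 0.67 ± 0.29 (limma adjusted p = 0.207). Ndufb5 had 0.59, 0.66 and 0.33, with a mean of 0.53 ± 0.17 (limma adjusted p = 0.231). All 3 genes were positive on every array, array 3 was the lowest each time, and 0 of them passed the test over all genes. The other 6 ran between -0.20 for Ndufb2 and 0.35 for Ndufb11. For Ndufb11, array 3 was on the other side, with 0.64, 0.66 and -0.26 on arrays 1, 2 and 3.

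Accessory subunits of the a series also had more positive than negative means, and the series were not tested against each other. Of 12 Ndufa and Ndufab genes counted in complex I, 8 had a positive mean (66.7%, against 50.3% of all genes). All 3 arrays were positive for 6 (50%, against 21.5%) and negative for 2 (16.7%, against 19.9%). The median was 0.14, with 0.35, 0.35 and 0.024 on arrays 1, 2 and 3. None of the 12 (0) had an unadjusted p under 0.05 in limma, which 16.8% of all genes had on either side. With array weights it gave Ndufa1, Ndufa5, Ndufa6 and Ndufa13, and without array 3 these and Ndufab1, all on the positive side. Ndufa6 stood at 0.52 ± 0.46, Ndufa1 at 0.43 ± 0.22, Ndufa5 at 0.40 ± 0.19 and Ndufa13, also known as the cell-death regulator GRIM-19, at 0.40 ± 0.26. The widest spread was that of Ndufab1, the mitochondrial acyl carrier protein, with 0.51, 0.65 and -0.88 on arrays 1, 2 and 3; its mean was 0.093, and it was -0.12, -0.18 and 0.58 without arrays 1, 2 and 3. The other genes not described below ran between -0.15 for Ndufa12 and 0.26 for Ndufa7. The lowest was Ndufa10, a subunit related to nucleoside kinases. Ndufa10 had -0.17, -0.49 and -0.45 on arrays 1, 2 and 3, a mean of -0.37 ± 0.17 (limma adjusted p = 0.339), with all 3 arrays on the negative side. The paired membrane subunits Ndufc1 and Ndufc2 stood at 0.29 ± 0.42 and 0.46 ± 0.29.

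The core subunits, those shared with bacteria, most of which carry a redox centre, showed no common side. Of 5 measured, 3 had a positive mean (60%, against 50.3% of all genes), and the medians of the 5 on arrays 1, 2 and 3 were 0.18, 0.12 and 0.14. Ndufv1, which binds NADH and the flavin, was negative on each array with -0.17, -0.30 and -0.25 and a mean of -0.24 ± 0.062, while its iron-sulfur partner Ndufv2 was positive on each with 0.48, 0.33 and 0.14 and a mean of 0.32 ± 0.17. Ndufs1, the large iron-sulfur subunit, stood at 0.19 ± 0.077. Ndufs7, next to the ubiquinone site, stood at 0.095 ± 0.38 with array 3 on the negative side, and Ndufs3 at -0.0056 ± 0.30 with array 3 on the positive side. For these 5 genes the limma adjusted p ran between 0.400 and 0.992.

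Ndufv3, a small accessory subunit of the NADH-binding part, had the smallest unadjusted p among complex I subunits of the negative side. It had -0.40, -0.41 and -0.85 on arrays 1, 2 and 3 and a mean of -0.55 ± 0.26 (limma adjusted p = 0.245). Ndufs4, an accessory subunit of the same part, was singled out after its values were seen. It had -0.23, -3.80 and -0.31, so that its mean of -1.44 ± 2.04 came from array 2, and without that array the mean was -0.27. Only 1.02% of all genes had an SD as large. Ndufs6, which binds zinc in the same arm, stood at 0.061 ± 0.12.

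Complex I assembly factors, which help to build the complex and are not part of it, had a median of 0.053 over 7 genes. On all 3 arrays 3 were positive (42.9%, against 21.5% of all genes) and 1 negative (14.3%, against 19.9%). The 1 was Ndufaf1, with -0.47, -0.44 and -0.61 on arrays 1, 2 and 3 and a mean of -0.51 ± 0.091 (limma adjusted p = 0.222). Its 3 arrays lay within a narrow range. Ndufaf5 and Ndufaf2 stood on the positive side at 0.42 ± 0.35 and 0.38 ± 0.37, with array 3 at 0.014 for Ndufaf5 and at 0.80 for Ndufaf2, against 0.16 or more on the other arrays of each. The other 4 ran between -0.050 for Ndufaf3 and 0.25 for Ndufaf8. The pseudogene Ndufs5-ps stood at 0.28 ± 0.26, and whether its oligo also binds RNA of the parent gene was not tested.

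**Figure D3:**
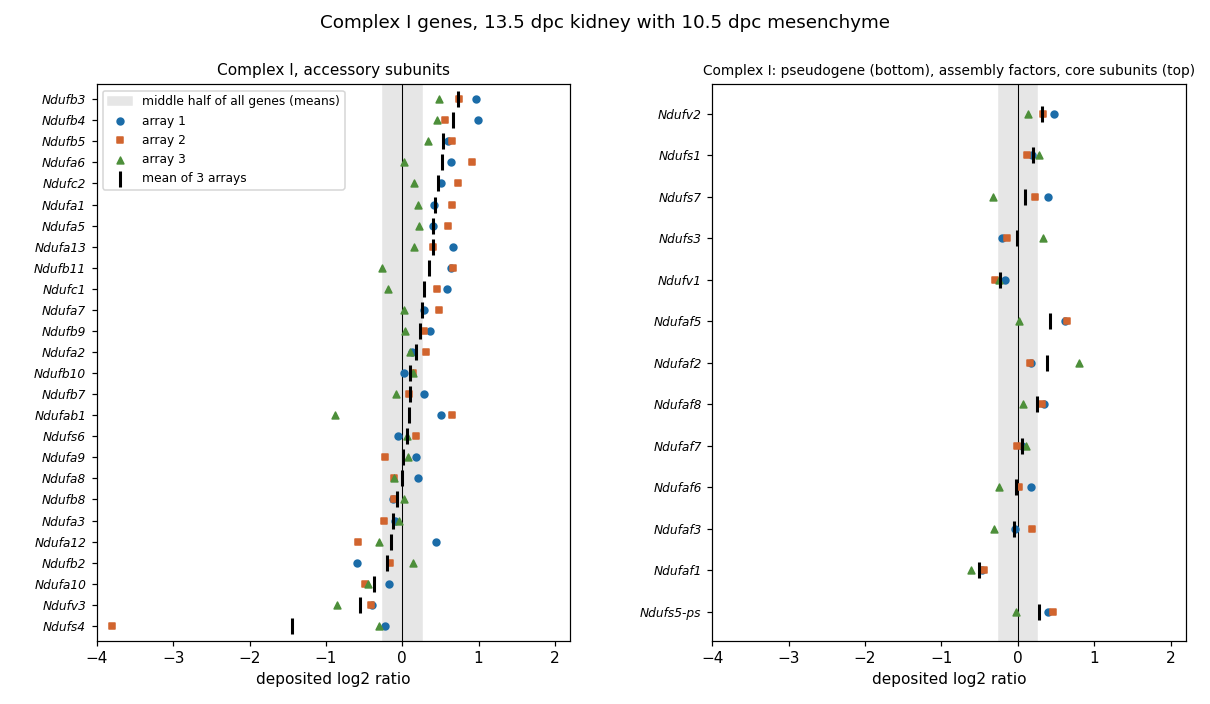
Deposited log2 ratio of the 39 complex I genes on each array (symbols) and their mean (bars), accessory subunits on the left and core subunits, assembly factors and a pseudogene on the right; the grey band runs from the lower to the upper quartile of all genes' means. Ndufb3, Ndufb4 and Ndufb5 are at the top with all arrays above 0, and the mean of Ndufs4 is set by array 2.

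Complex II, succinate dehydrogenase, joins the tricarboxylic acid cycle to the electron chain. Its flavoprotein Sdha and its membrane anchor Sdhc lay on the negative side, and the other pair stood at 0. Sdha had -1.01, -0.22 and -0.81 on arrays 1, 2 and 3, a mean of -0.68 ± 0.41 (limma adjusted p = 0.247). Sdhc had -0.48, -0.38 and -0.50, a mean of -0.45 ± 0.066 (limma adjusted p = 0.252). Both were negative on every array, with Sdhc the tighter and array 2 nearest 0 in each. Sdhb, the iron-sulfur subunit, had -0.012 and 0.051 on arrays 1 and 2 and 0, to 2 decimals, on array 3, a mean of 0.013 ± 0.033 (limma adjusted p = 0.974). Sdhd, the second anchor, had -0.30, 0.25 and 0.048, a mean of 0.0022 ± 0.28 (limma adjusted p = 0.997), with arrays on both sides. The 95% intervals of the limma means, -0.37 to 0.40 for Sdhb and -0.48 to 0.48 for Sdhd, overlap those of Sdha (-1.26 to -0.10) and Sdhc (-0.84 to -0.063), and no difference between subunits was tested.

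Complex III passes electrons from ubiquinol to cytochrome c. Uqcrb, its ubiquinone-binding subunit, had the highest mean of all 84 genes and ranked 81 among 19635 genes by mean. It had 1.44, 1.86 and 1.77 on arrays 1, 2 and 3, a mean of 1.69 ± 0.22, a 3.23-fold difference (limma adjusted p = 0.107). All 3 arrays were above 1.4, far from the rest of the complex. The next was Uqcr10, a small subunit, with 0.80, 0.78 and -0.020 on arrays 1, 2 and 3 and a mean of 0.52 ± 0.47, where arrays 1 and 2 were high and array 3 was just below 0. The hinge protein Uqcrh had 0.061, 0.043 and 0.46 and a mean of 0.19 ± 0.23 (limma adjusted p = 0.629), positive on every array. The other 5 stood between -0.16 and 0.014. They were the core proteins Uqcrc1 (-0.10 ± 0.16) and Uqcrc2 (0.014 ± 0.10), the Rieske iron-sulfur protein Uqcrfs1 (-0.093 ± 0.17) and the small subunits Uqcrq (0.012 ± 0.23) and Uqcr11 (-0.16 ± 0.21), each with arrays on both sides of 0. None of these 8 genes was negative on all 3 arrays. Cyc1, the cytochrome subunit of complex III whose symbol lies outside the choice of genes, had -0.26, -0.16 and -0.98, a mean of -0.47 ± 0.45 (limma adjusted p = 0.388), negative on all 3.

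Complex IV, cytochrome c oxidase, hands the electrons to oxygen. It held genes at both ends of the range. Ndufa4, reassigned to it from complex I, had 1.29, 1.51 and 1.54 on arrays 1, 2 and 3, a mean of 1.45 ± 0.14, a 2.72-fold difference (limma adjusted p = 0.107). Cox6b1, which faces the space between the mitochondrial membranes, had 1.61, 0.83 and 1.50, a mean of 1.31 ± 0.42, a 2.49-fold difference (limma adjusted p = 0.121). For both genes every array was above 0.8, the lowest being array 2 of Cox6b1. Cox5b, which binds zinc, had 0.47, 0.75 and 0.31, a mean of 0.51 ± 0.22 (limma adjusted p = 0.258), again positive on every array.

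Cox5a, the partner subunit on the matrix side, lay on the other side, with -1.85, -1.60 and -0.28 on arrays 1, 2 and 3 and a mean of -1.25 ± 0.84, a 2.37-fold difference (limma adjusted p = 0.221). Arrays 1 and 2 were below -1.5 and array 3 was nearer 0, so the mean was -1.73 without array 3 and -0.94 without array 1. Cox8a had -0.31, -3.41 and 0.24, a mean of -1.16 ± 1.97 (limma adjusted p = 0.517). That mean came from array 2; without it the mean was -0.034, and array 3 was on the positive side.

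The paired forms of complex IV subunits were set beside each other on the same arrays. Each difference compares ratios, not levels, and no difference between forms was tested. Whether an oligo of one form also binds RNA of its relatives was not tested. In the Cox7a family the muscle form Cox7a1 had 0.14, 0.86 and 0.55 on arrays 1, 2 and 3, a mean of 0.52 ± 0.36 (limma adjusted p = 0.309), against -0.17, 0.15 and 0.031 and a mean of 0.0047 ± 0.16 for the widely expressed Cox7a2. The difference, Cox7a1 minus Cox7a2, was positive on all 3 arrays (0.31, 0.71 and 0.52). Cox7a2l, a relative that links complexes III and IV into supercomplexes, had 0.52, 0.62 and 0.59, a mean of 0.57 ± 0.052 (limma adjusted p = 0.190), and its difference to Cox7a2 was positive on each array too (0.68, 0.47 and 0.56). Cox7a2l had the tightest arrays of the 8 genes of the positive side with an unadjusted p under 0.05.

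The other pairs gave arrays on both sides or rested on 1 array. The lung and hypoxia form Cox4i2 had 0.53, 0.46 and -0.34, a mean of 0.21 ± 0.48 (limma adjusted p = 0.691), beside -0.0087, -0.041 and 0.083 and 0.011 ± 0.064 for Cox4i1, so that arrays 1 and 2 set Cox4i2 higher and array 3 Cox4i1. The muscle form Cox6a2 had 0.19, -0.22 and 0.17, a mean of 0.045 ± 0.23, beside -0.15, -0.14 and 0.043 and -0.084 ± 0.11 for Cox6a1; neither had all arrays on 1 side. In the Cox8 family the muscle form Cox8b had 0.50, 0.62 and 0.11, a mean of 0.41 ± 0.27 (limma adjusted p = 0.346), and the testis form Cox8c 0.59, 0.34 and 0.010, a mean of 0.31 ± 0.29 (limma adjusted p = 0.459). Both were positive on every array, and their distance to Cox8a was set by the array 2 value of Cox8a. Cox6c had 0.024, 0.20 and 0.11, a mean of 0.11 ± 0.088, and the testis form Cox7b2 -0.012, 0.21 and 0.029, a mean of 0.076 ± 0.12. Widely expressed forms lay both near 0 and far from it, with Cox4i1, Cox6a1, Cox6c, Cox7a2 and Cox7c between -0.084 and 0.11, and Cox6b1, Cox5b, Cox8a and Cox5a further out, as given above. The 95% intervals of the limma means ran from -0.38 to 0.40 for Cox4i1 and from -0.41 to 0.42 for Cox7a2.

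Complex V, the ATP synthase, had 0 of 16 genes at an unadjusted p under 0.05 (limma), against 16.8% of all genes on either side. With array weights limma gave Atp5d and Atp5g2, without array 3 Atp5g2, and with single oligos 1 oligo of Atp5md, all on the positive side. Of the 16 genes 2 were positive (12.5%, against 21.5% of all genes) and 2 negative (12.5%, against 19.9%) on all 3 arrays. The other 12 had arrays on both sides, and 11518 of all 19635 genes were likewise of no single sign. The subunits of the catalytic head and central stalk had a median of -0.030. Atp5a1 and Atp5b, the alpha and beta subunits of the head, stood at -0.030 ± 0.34 and -0.022 ± 0.29. In the central stalk Atp5d, the delta subunit, had 0.51, 0.35 and 0.16 on arrays 1, 2 and 3, a mean of 0.34 ± 0.18 (limma adjusted p = 0.374). Atp5e, the epsilon subunit, had -0.35, -0.21 and -0.10, a mean of -0.22 ± 0.13 (limma adjusted p = 0.524), and Atp5c1, the gamma subunit, -0.11, -0.038 and -0.30, a mean of -0.15 ± 0.13 (limma adjusted p = 0.671). Atp5d was thus positive on each array, and Atp5e and Atp5c1 were negative on each, without passing the test.

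The membrane part of the ATP synthase had a median of 0.19 over 6 genes, all of positive mean, where 50.3% of all genes had one. Only 1 of the 6 was positive on all 3 arrays (16.7%, against 21.5% of all genes). The mean of Atp5md, among the 6, averages 2 oligos on opposite sides, given below. The peripheral stalk, which holds the head still, had a median of -0.020 over 4 genes. Subunit c forms the rotating ring and comes from several genes that encode the same mature protein. Of these Atp5g2 had 0.47, 1.08 and 0.20 on arrays 1, 2 and 3, a mean of 0.58 ± 0.45 (limma adjusted p = 0.308), and Atp5g1 0.55, 0.16 and -0.22, a mean of 0.16 ± 0.39 (limma adjusted p = 0.730). Atp5g2 was positive on every array, Atp5g1 was not, and Atp5g2 minus Atp5g1 was -0.082, 0.92 and 0.42. Whether the oligo of either gene also binds RNA of the other was not tested. Atp5mpl, a small proteolipid, ran from -0.40 on array 2 to 1.20 on array 1, and Atp5j2, another small membrane subunit, stood at 0.14 ± 0.28. In the stalk Atp5h stood at 0.0081 ± 0.018, Atp5o at -0.048 ± 0.078, Atp5pb at 0.19 ± 0.27 and Atp5j at -0.21 ± 0.33. The pseudogene Atp5k-ps1 stood at 0.10 ± 0.27, beside 0.21 ± 0.44 for Atp5k.

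Atp5md, a small membrane subunit also called DAPIT, was the only gene with 2 oligos, and they lay on opposite sides. One had log2 ratios of 0.99, 0.75 and 0.94 on arrays 1, 2 and 3, a mean of 0.89 ± 0.13 (limma adjusted p = 0.126 in a fit of single oligos). The other had -0.69, 0.28 and -1.20, a mean of -0.54 ± 0.75 (limma adjusted p = 0.481). The average of both, 0.18 ± 0.32 (limma adjusted p = 0.682), describes neither. Every other gene rested on 1 oligo, so no such check was possible for it.

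**Figure D4:**
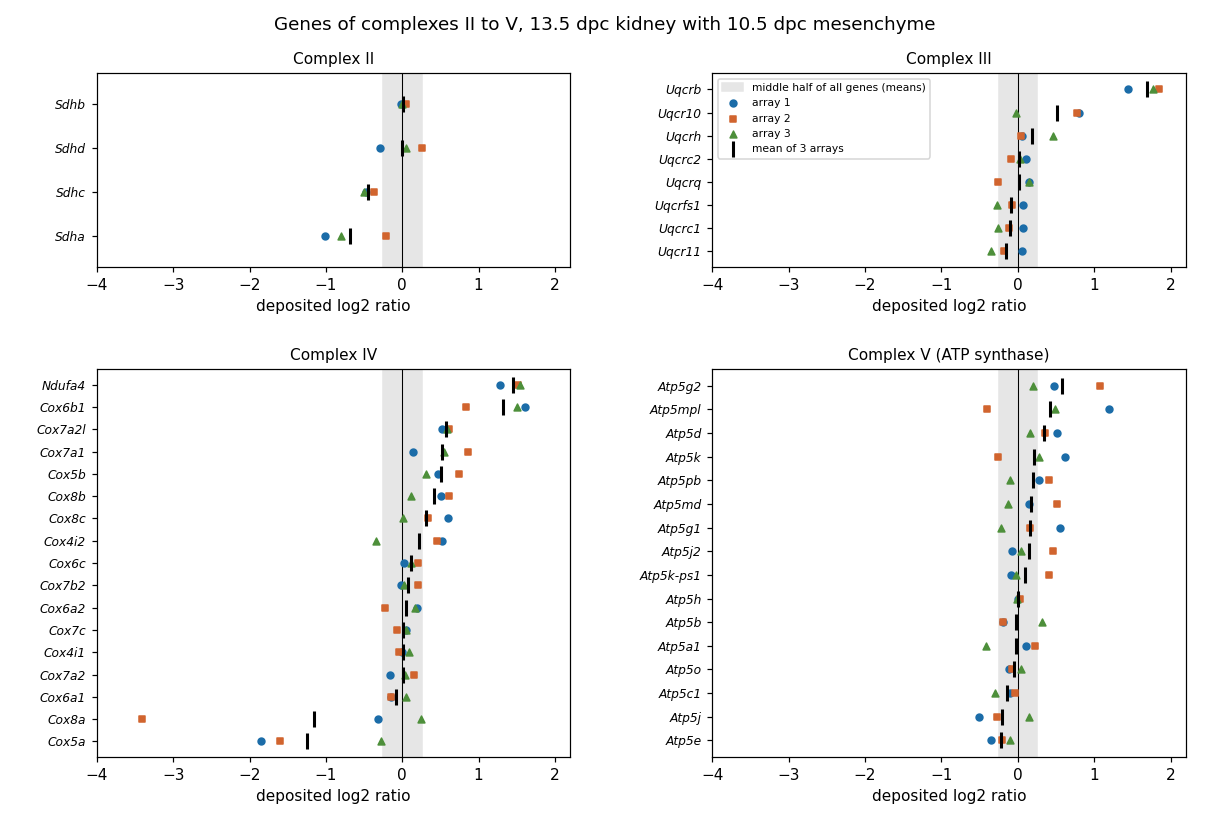
Deposited log2 ratio of the genes of complexes II, III, IV and V on each array (symbols) and their mean (bars); the grey band runs from the lower to the upper quartile of all genes' means. Uqcrb, Ndufa4 and Cox6b1 stand apart on the positive side with every array, Cox5a on the negative side with arrays 1 and 2, and most ATP synthase genes lie in the band.

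Other genes of the respiratory pathway were taken from lists of symbols and described by their counts, with 0 genes past an adjusted p of 0.05 in any list (limma). Their counts at an unadjusted p under 0.05 compare with 8.99% of all genes for positive and 7.83% for negative ratios. Their counts of positive means compare with 50.3% of all genes. Of 31 measured assembly factors with other names, 12 had a positive mean, 1 was positive and 5 were negative at an unadjusted p under 0.05, and the median was -0.11. Timmdc1, a complex I assembly factor, stood far out with -2.80, -1.95 and -2.48 on arrays 1, 2 and 3 and a mean of -2.41 ± 0.43 (limma adjusted p = 0.107). Coa5, of complex IV assembly, stood at -0.64 ± 0.25, and Cox20 and Cox16, of the same process, at 0.54 ± 0.24 and 0.43 ± 0.21. Of 14 electron carriers and ubiquinone synthesis genes, 2 were on the positive side at an unadjusted p under 0.05 and 0 on the negative side, with Coq8a at 0.55 ± 0.25 and Coq7 at 0.50 ± 0.29.

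Among 11 partners of the ATP synthase and carriers of ATP, Atpif1, the inhibitor that blocks the enzyme from running backwards, had 1.67, 1.66 and 0.86 on arrays 1, 2 and 3, a mean of 1.39 ± 0.47 (limma adjusted p = 0.121). All 3 arrays were positive, with array 3 lowest. The list had 2 genes on the positive side, the other being the ADP/ATP carrier Slc25a31 (0.49 ± 0.15), and 1 on the negative side, the channel Vdac3 (-0.46 ± 0.17), at an unadjusted p under 0.05. The proton-pumping ATPase of vacuoles, searched as a contrast to the ATP synthase, had 1 positive and 2 negative of 16 genes at that p, with Atp6v1b2 at -1.69 ± 0.49.

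Of 19 genes of the tricarboxylic acid cycle and pyruvate dehydrogenase, 2 were positive and 5 negative at an unadjusted p under 0.05 (limma), and the median was -0.095. Dlst, of the oxoglutarate dehydrogenase complex, had -0.72, -0.68 and -0.74, a mean of -0.72 ± 0.029 (limma adjusted p = 0.146), and Suclg2, of the next step, stood at -0.72 ± 0.23, both negative on all arrays. Sucla2, the alternative subunit to Suclg2 in the same enzyme, had 0.68, 0.62 and 0.18, a mean of 0.49 ± 0.27, positive on all arrays, and 8 of the 19 genes had a positive mean. Pdk4, a kinase that inhibits pyruvate dehydrogenase, stood at 0.50 ± 0.076. At an unadjusted p under 0.05, 1 of 13 fatty acid oxidation genes was positive and 3 were negative (limma), with Hadhb at -1.05 ± 0.16 and Acads at -1.19 ± 0.33. Of 14 genes that regulate mitochondrial genes or copy and transcribe mitochondrial DNA, 0 were positive and 1, Nrf1, was negative at that p. Tfam, which packs mitochondrial DNA, stood at -0.30 ± 0.40.

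Markers of other tissues and of kidney also stood away from 0, and their part in the results above was not tested. These lists, too, were chosen with earlier results of these data known. Of all genes 50.3% had a positive mean, and 8.99% were positive and 7.83% negative at an unadjusted p under 0.05 (limma). Of 16 erythroid markers 15 had a negative mean (median -0.44), 7 of them at that p, with Hbb-bh1, an embryonic globin, at -3.95 ± 0.32. Of 15 striated muscle markers 13 were negative (median -0.55), 8 of them at an unadjusted p under 0.05, with skeletal actin, Acta1, at -1.98 ± 0.45. Of the muscle forms of complex IV, Cox7a1 stood at 0.52, Cox8b at 0.41 and Cox6a2 at 0.045. Of 8 liver markers 6 were negative (median -0.90), 5 of them at an unadjusted p under 0.05. Alb, albumin, was positive at that p, and on each array, with 1.20, 0.22 and 1.21 and a mean of 0.87 ± 0.57. Of 8 markers of kidney mesenchyme and tubule 7 were positive (median 0.52), 4 of them at that p, with the tubular cadherin Cdh16 at 3.31 ± 0.48. The other, Osr1, was negative at that p, and on each array, with -0.61, -0.60 and -0.49 and a mean of -0.57 ± 0.067. A ratio cannot show whether a marker was absent from either tissue.

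**Figure D5:**
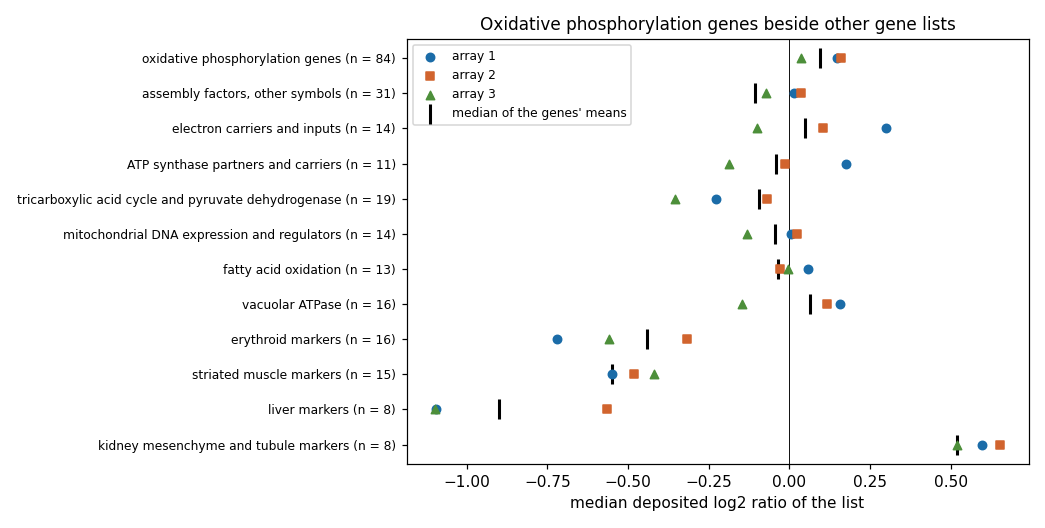
Median deposited log2 ratio of each gene list on each array (symbols) and the median of the genes' means over the 3 arrays (bars). The 84 oxidative phosphorylation genes sit just above 0 on all 3 arrays, while erythroid (-0.44), striated muscle (-0.55) and liver markers (-0.90) have medians of means below 0 and kidney markers (0.52) above.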

How the data were processed

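RNA of 13.5 dpc kidney was set against RNA of 10.5 dpc metanephric mesenchyme on 3 arrays of 2 colours, which form 1 group. The authors deposited 1 log2 ratio per spot and array, where base 2 was inferred from the values themselves. Per the labels, images were read with ImaGene 5.5, and print-tip loess and a normalization between arrays were done in R, with a lowess fit on 20.0% of the data and control values under 10 set to 10. Numerator, dyes and genome build are not given in the sources used here, and no sign was turned.

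Of 22702 spots, 21819 were library oligos and 21094 had a value on all 3 arrays. Oligos of a symbol were averaged, which gave 14746 genes, and 4889 oligos with no or several symbols were kept singly, 19635 features in all. A test of each mean against 0 was made in limma 3.58.1, R 4.3.3 (intercept only, eBayes, two-sided), adjusted by Benjamini-Hochberg over all genes; the code was tested on simulated data. The smallest two-sided p of an exact sign-flip test over 3 arrays is 0.25, so none was run. Of the 85 genes, 84 matched the RefSeq table by identifier, and 0 symbols changed. The 34 genes shown by rule were all of complex II, the 3 of smallest p on each side of the other complexes among those of 1 sign, paired forms, those at an unadjusted p under 0.05 and those with several oligos; at most 2 a side were named from other lists. Ndufab1, Ndufb11, Ndufs4, Ndufv1, Ndufv2 and Uqcr10 were added with the value on every array after their values were seen. Other genes outside the rule, among them Ndufa1, Ndufa5, Ndufa6, Ndufa13 and Atp5mpl, were named with fewer values, also after the results were seen. The genes and lists were chosen with earlier results of these data known.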

Additional observations from a re-analysis of the deposited data

How the results depend on the processing

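With the arrays rescaled to a common MAD, quantile normalized or weighted, robust empirical Bayes, single oligos, 2 arrays admitted, values at the lowest ratio removed, subunits alone, or 1 array left out, 0 of the 84 genes passed at an adjusted p of 0.05 (limma), and the lowest adjusted p among the 34 genes shown by rule was 0.0714, with array weights. The count on the positive side at an unadjusted p under 0.05 was 19 with array weights, and 3 to 21 with 1 array left out, against 8 with all arrays; the count on the negative side was 0 to 1 with 1 array left out, against 5. The fits without an array rest on 2 arrays each, and the cause of the differing counts was not tested. With 1 array left out the median of complex V was 0.0049 to 0.17 and that of complex III -0.043 to 0.10. The median of complex III was also negative with arrays rescaled to a common MAD (-0.013), quantile normalized (-0.0010) or weighted (-0.025). Of the 34 genes, 27 kept the side of their mean under every alternative. The other 7 had means of at most 0.18 in size. Some alternatives were no check of the side for a gene of 1 oligo. Robust empirical Bayes, single oligos, 2 arrays admitted and subunits alone cannot change such a mean. Removal of values at the lowest ratio left the means of the 34 genes as they were. With 1 array left out Sdhb had -0.0058 to 0.026, Sdhd -0.12 to 0.15, Cox4i1 -0.025 to 0.037, Cox6a2 -0.027 to 0.18, Cox7a2 -0.068 to 0.090 and Atp5g1 -0.030 to 0.36. Cox4i1 had -0.0042 with the common MAD and -0.011 with array weights, Cox6a2 had -0.016 with array weights, and the second oligo of Atp5md, on its own, had -0.54, against 0.18 for the average of both. Of the 6 genes added with the value on every array, recomputed only with an array left out, Ndufab1 (0.093) had -0.18 to 0.58 and the other 5 kept their side. The 3 arrays limit the precision, and spot intensities were not used here, so signal over background could not be examined. No paired analysis was possible because the arrays form 1 group, in which each array holds both RNAs.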
